A study of Homo sapiens with 4 samples.

Results

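The 10 genes described here encode S100 calcium-binding proteins: S100A2, S100A4, S100A6, S100A7, S100A8, S100A9, S100A10, S100A11, S100A14 and S100P. They were taken by symbol from a deposited table of 17064 genes, and all 10 were found, each on a single line. Poly(A) RNA was sequenced from the established human cell line KYSE-150, a squamous carcinoma of the esophagus, which had either normal NSUN6 or a stable short hairpin RNA that lowers NSUN6, an RNA methyltransferase that forms 5-methylcytosine. In both kinds of cell the ribosomes were arrested with cycloheximide, and total RNA (input) and RNA pelleted through sucrose with polyribosomes were sequenced. There were 4 libraries, 1 for each of control input, control polyribosome, NSUN6-knockdown input and NSUN6-knockdown polyribosome RNA. No replicate spread can therefore be given for any value, no test was made, and neighbouring levels in any order below cannot be told apart from library-to-library variation. How many clones or cultures the knockdown line came from is not given in the sources used here.

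S100 proteins are small cytosolic proteins with a pair of EF-hand calcium-binding loops. Most act as dimers that change shape on binding calcium and then dock onto target proteins such as annexins, cytoskeletal proteins and, once released from the cell, surface receptors. Most of their genes lie together on chromosome 1 beside the genes of the cornified envelope, and stratified squamous epithelium is one of the tissues best known for expressing them.

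Values are FPKM, in which fragment counts are scaled to transcript length and to the number of mapped reads in the library. This puts genes and libraries on one scale, but it does not remove differences between libraries in composition or in length trend. The read depth is unknown. FPKM summed to between 538002 and 627887 per library, and between 14645 and 15081 genes were above 0. NSUN6, the targeted gene, was 8.85 FPKM in the control input library, against 3.83 FPKM in the input library labelled knockdown, and it was 10.1 and 0.38 FPKM in the corresponding polyribosome libraries. A closing line of the table repeats the column names in another form. It names the control columns K150 shGFP and the other pair K30 shMettl1, and it gives that pair in the opposite order of fractions. The header, which matches the sample descriptions, was followed. The pair is called knockdown-labelled below, and values with its fractions exchanged are given where they matter. Of 8 markers of squamous epithelium, all were above 0 in the 4 libraries, but their summed FPKM was 1998 and 2528 in the control libraries and 501 and 616 in the knockdown-labelled input and polyribosome libraries. Within this sum the basal keratin KRT5 was 906 FPKM in control input, against 0.45 FPKM in knockdown-labelled input, and SFN made up 401 of the remaining 501 FPKM. The summed FPKM of 6 simple epithelial markers was 3212 and 4302 against 5479 and 6913. Within it KRT19 was 0.07 FPKM in control input, against 1488 FPKM in knockdown-labelled input. The other markers differed less or went both ways. In the same libraries KRT7 was 5.42 and 60.4 FPKM, KRT8 1503 and 1941 FPKM, and KRT18 1616 and 1756 FPKM. EPCAM was 66.4 and 186 FPKM in input but 76.6 and 28.05 FPKM on polyribosomes. CDH1 was 21.3 and 47.7 FPKM in input but 26.3 and 11.15 FPKM on polyribosomes. Whether the pairs of libraries differ by cell line or by hairpin cannot be told apart here.

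The S100 messages together made up a larger share of the knockdown-labelled libraries. The 10 genes summed to 3556 FPKM for control input and 3910 FPKM for control polyribosome RNA, which was 0.614% and 0.692% of all FPKM. In the knockdown-labelled pair they summed to 7518 FPKM for input and 7741 FPKM for polyribosome RNA, or 1.40% and 1.23%. Most of this sum belonged to S100A11, which took 53.1%, 53.3%, 64.8% and 57.9% of it in these 4 libraries. In control input the order of levels was S100A11, S100A10, S100A14, S100A2, S100A6, S100A9, S100A8, S100A4, S100A7 and S100P. In knockdown-labelled input S100A6 stood directly after S100A11, S100P stood between S100A14 and S100A4, and S100A2 came after both S100P and S100A4. The order in knockdown-labelled polyribosome RNA was the same as in knockdown-labelled input.

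**Figure D1:**
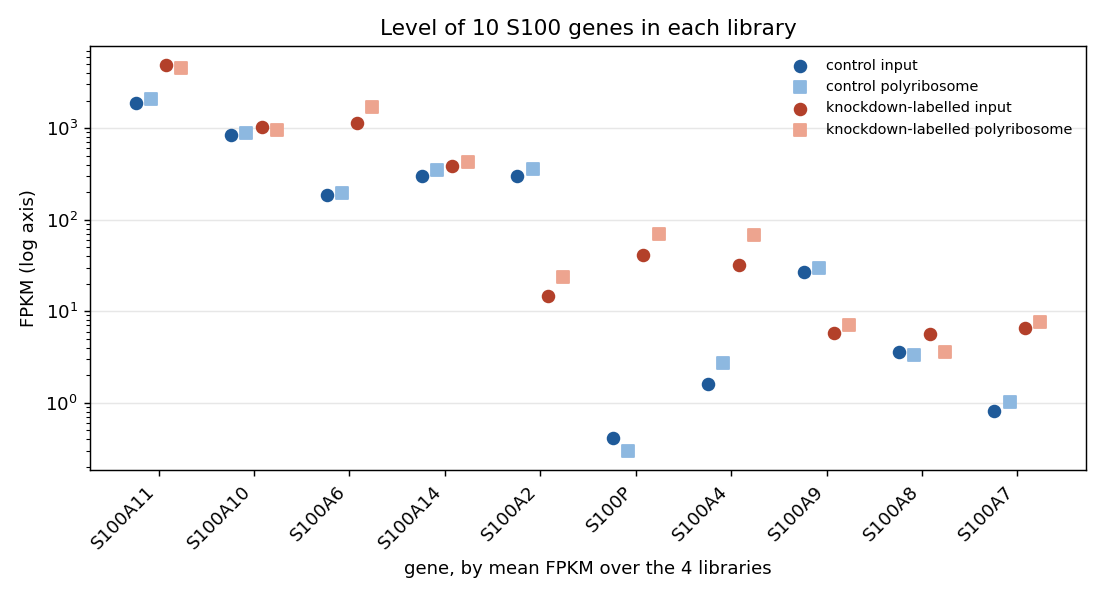
FPKM (log axis) of the 10 S100 genes in each of the 4 libraries, 1 point per library, with genes ordered by mean FPKM. S100A2 and S100A9 sit lower in both knockdown-labelled libraries, and S100A6, S100A4, S100P, S100A7 and S100A11 sit higher in both.

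Changes between cells were computed as knockdown-labelled minus control on the log2(FPKM + 1) scale, which understates the change of low genes. A gene was counted as higher or lower when this difference reached 2-fold, among the 7379 genes that averaged 5 FPKM or more over the 4 libraries. Of the 10 S100 genes, 8 passed this filter. S100A7 and S100A8, at means of 4.02 and 4.05 FPKM, were just under it and are described apart. In input RNA 4 of the 8 genes were at least 2-fold higher (S100A4, S100A6, S100A11 and S100P) and 2 were at least 2-fold lower (S100A2 and S100A9), whereas 13.2% of all genes kept were higher and 14.4% lower. In polyribosome RNA the same 6 genes differed in the same directions, 4 higher and 2 lower, against 16.7% and 32.9% of all genes. S100A4 and S100P passed the filter only through the knockdown-labelled libraries, where they were high, so these counts and medians are a description and support nothing. The median of the 8 genes was 0.86 in input and 0.70 on polyribosomes, and that of all genes was 0.01 and -0.28. Centring on that polyribosome median moved the share of higher genes among all genes past 2-fold from 33.6% to 45.8%, and left the S100 counts at 4 and 2. With the fractions exchanged the counts were again 4 higher and 2 lower in both comparisons. The backgrounds were then 15.9% higher and 31.8% lower in input, and 12.7% higher and 14% lower on polyribosomes.

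**Figure D2:**
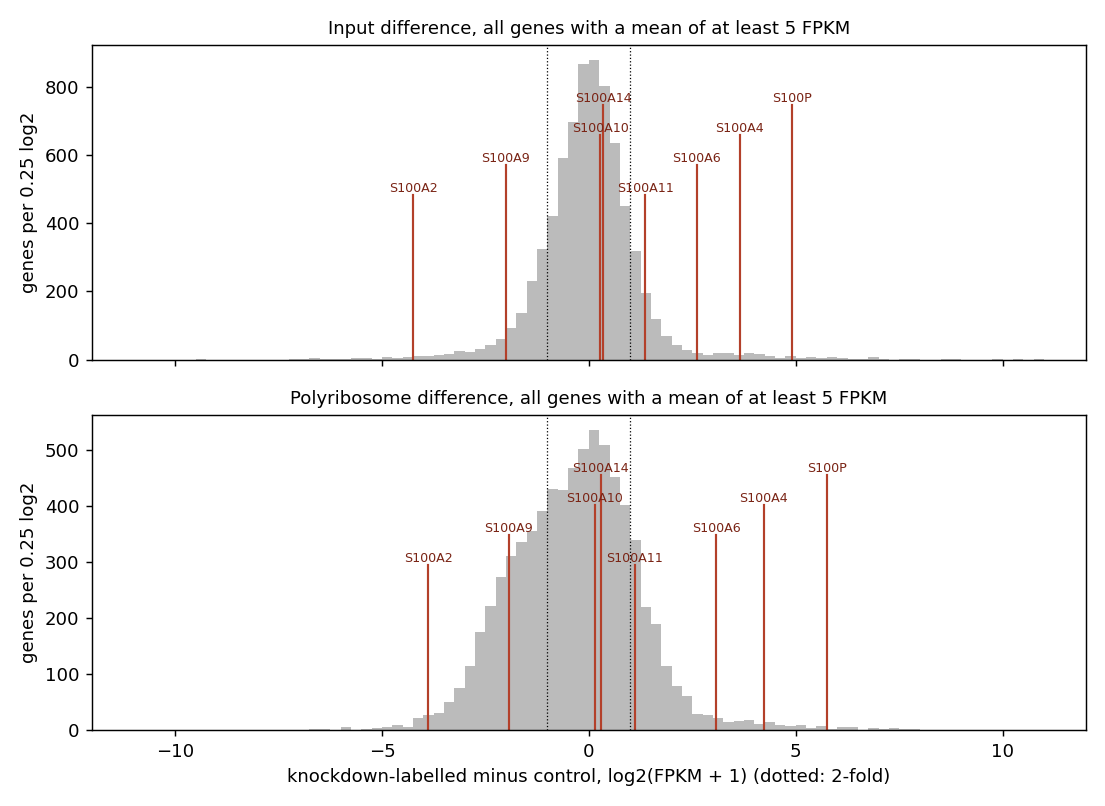
Number of genes per 0.25 log2 units of the difference between knockdown-labelled and control cells, in input (top) and polyribosome RNA (bottom), over the 7379 genes that averaged 5 FPKM or more, with the 8 S100 genes that passed this filter marked by lines. Only S100A10 and S100A14 lie between the dotted 2-fold lines in both panels, and S100P lies furthest above 0 and S100A2 furthest below it among the S100 genes.

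S100P and S100A4 were near 0 in control cells and at moderate levels in knockdown-labelled cells. S100P, first isolated from placenta and a ligand of ezrin and of the receptor AGER, was at 0.41 FPKM in control input, 0.30 FPKM in control polyribosome RNA, 41.0 FPKM in knockdown-labelled input and 69.3 FPKM in knockdown-labelled polyribosome RNA. Both knockdown-labelled libraries were far above both control libraries, and the log2 difference was 4.90 in input and 5.76 on polyribosomes. With 0.1 added to each value in place of 1, these were 6.33 and 7.44, so the size depends on that constant while the direction does not. S100A4, which binds the heavy chain of non-muscle myosin and is known for its link to cell motility and metastasis, was at 1.62 and 2.71 FPKM in control input and polyribosome RNA and at 31.9 and 68.6 FPKM in the knockdown-labelled pair. Its log2 difference was 3.65 in input and 4.23 on polyribosomes. An S100A4 transcript overlaps S100A3 on the same strand in GENCODE 29, so the division of reads between these neighbours is uncertain. S100A3 itself was at most 1.86 FPKM in any library.

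S100A6 and S100A11 were abundant in control cells and higher still in knockdown-labelled cells. S100A6, also called calcyclin, which binds annexins and the calcyclin-binding protein CACYBP, was at 185 and 198 FPKM in control input and polyribosome RNA and at 1127 and 1682 FPKM in the knockdown-labelled pair. This was 6.10-fold higher in input and 8.48-fold higher on polyribosomes. S100A11, an annexin A1 ligand with a known role in keratinocyte growth control, was at 1889 and 2085 FPKM in control and at 4871 and 4485 FPKM in knockdown-labelled cells. It was 2.58-fold higher in input and 2.15-fold higher on polyribosomes. By FPKM, S100A11 ranked 2 among all genes in knockdown-labelled input and 41 in control input. GENCODE 29 lists a gene antisense to each of S100A6 and S100A11, and processed pseudogenes of S100A11. The library kit keeps strand, but how strand was set in counting is not given in the sources used here, so part of these levels may belong to such copies.

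S100A2 was the abundant member that was far lower in knockdown-labelled cells. S100A2, a mainly nuclear S100 protein that interacts with p53 and is typical of basal squamous cells, had a level of 299 FPKM in the control input library and 362 FPKM in the control polyribosome library. It was at 14.8 and 23.7 FPKM in the knockdown-labelled pair, which was 20.2-fold lower in input and 15.3-fold lower on polyribosomes. The log2 differences were -4.25 and -3.88. In control input S100A2 was 1.62 times S100A6, and in knockdown-labelled input S100A6 was 76.0 times S100A2. On polyribosomes the same ratios were 1.83 and 71.0. The basal keratins KRT5, KRT14, KRT15 and KRT17 were also more than 2-fold lower in knockdown-labelled input, as 4 of the 7 squamous markers that passed the filter, where 14.4% of all genes were lower. After exchange of the fractions 5 of the 7 were lower, where 31.8% of all genes were. KRT5 and KRT14 passed the filter only through the control libraries, where they were high, so these marker counts support nothing. TP63, the squamous lineage transcription factor, was 30.3 FPKM in control input, against 23.7 FPKM in knockdown-labelled input, and 28.8 against 2.16 FPKM on polyribosomes. Whether S100A2 moved with the kind of cell, or with the share of cells of a squamous type in a culture, was not tested. In bulk RNA fewer cells of a type and less RNA per cell cannot be told apart. A difference of cell line and an effect of the hairpin cannot be told apart here either.

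S100A8 and S100A9 form calprotectin, a heterodimer that sequesters metals and signals through TLR4 and AGER. S100A9 was at 26.7 and 29.7 FPKM in control input and polyribosome RNA and at 5.86 and 7.04 FPKM in the knockdown-labelled pair, a log2 difference of -2.01 in input and -1.93 on polyribosomes. S100A8 stayed low in every library, at 3.62, 3.32, 5.61 and 3.63 FPKM in control input, control polyribosome, knockdown-labelled input and knockdown-labelled polyribosome RNA. The pair was therefore unbalanced in control cells, where S100A9 was 7.37 times S100A8 in input and 8.94 times on polyribosomes. In knockdown-labelled cells S100A9 was 1.04 times S100A8 in input and 1.94 times on polyribosomes. Both genes are also abundant in neutrophils and monocytes. Of 12 myeloid markers, 11 were in the table and 8 of these were under 1 FPKM in every library, including the leukocyte gene PTPRC and the neutrophil genes CSF3R and FCGR3B. The summed FPKM of these markers was 74.7 and 72.2 in control and 11.76 and 13.01 in knockdown-labelled cells, and CD68, a lysosomal protein gene that is not restricted to myeloid cells, accounted for 71.2 FPKM of the control input sum. Besides CD68, LYZ and CSF1R exceeded 1 FPKM in some library. LYZ was 2 FPKM in control input, against 1.85 FPKM in knockdown-labelled input. CSF1R went the other way from the sum, at 0.63 and 2.93 FPKM.

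S100A7, or psoriasin, a chemotactic and antimicrobial protein of stressed keratinocytes, was at 0.82 and 1.02 FPKM in control input and polyribosome RNA and at 6.53 and 7.71 FPKM in the knockdown-labelled pair. Both knockdown-labelled values were above both control values, with log2 differences of 2.05 and 2.11 at levels where the unknown depth limits precision. Its near-identical neighbour S100A7A was at 0.01 FPKM or listed at 0 in each library, and reads shared by these copies could be divided between them.

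S100A10 and S100A14 differed little between the cells. S100A10, also known as p11, has lost calcium binding and sits in a stable complex with annexin A2 at the plasma membrane, where it binds plasminogen. It was at 847, 876, 1028 and 965 FPKM in control input, control polyribosome, knockdown-labelled input and knockdown-labelled polyribosome RNA, with log2 differences of 0.28 in input and 0.14 on polyribosomes. S100A14, an epithelial S100 protein, was at 303 and 351 FPKM in control and at 386 and 429 FPKM in knockdown-labelled cells, with log2 differences of 0.34 and 0.29. Without replicates, differences of this size cannot be set against an error.

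The S100 genes on chromosome 1 did not all differ in one direction. In the RefSeq order of GRCh38.p14 the run S100A6, S100A5, S100A4, S100A3 and S100A2 had log2 input differences of 2.60, -0.19, 3.65, -1.42 and -4.25. S100A5 and S100A3 were under the filter, at no more than 0.68 and 1.86 FPKM in any library, so their signs carry little. S100A5 was at 0.65 on polyribosomes. Of the genes of this run past the filter, S100A6 and S100A4 were higher and S100A2 was lower. Next to S100A2, S100A16 was at 0.22, S100A14 at 0.34 and S100A13 at 0.54. S100A16 and S100A13 were the only other S100 genes past the filter, of 8 in the table. On polyribosomes both were more than 2-fold higher, at 1.04 and 1.11, where 16.7% of all genes were higher. With the fractions exchanged S100A16 was at 0.21 and S100A13 at 0.58 there. With a trend on GC content and transcript length removed, S100A16 was at 0.41 and S100A13 at 0.43 there. The 7 genes that fuse an S100 domain to long repeats (the filaggrin type of the granular layer) were all under 1 FPKM in every library. Among cornified envelope and other genes of the same region, 10 of 20 in the table passed the filter, of which 6 were at least 2-fold higher in knockdown-labelled input and 0 lower, with a median of 1.14, where 13.2% of all genes were higher and 14.4% lower. Of these 6, IVL, SPRR1A, SPRR1B and SPRR3 passed the filter only through the knockdown-labelled libraries, so the count and the median support nothing for the list. Exchanging the fractions gave 5 and 1, where 15.9% of all genes were higher and 31.8% lower. SPRR3 was listed at 0 in control input and reached 413 FPKM in knockdown-labelled input, and SPRR1B was at 0.56 and 140.4 FPKM. Both encode precursors of the cornified envelope. SLC27A3, a fatty acid transport family gene, had the lowest difference among these, -0.33, and GATAD2B, which encodes a subunit of the NuRD chromatin complex, had the next lowest, 0.46. S100P, on chromosome 4, was outside this region.

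**Figure D3:**
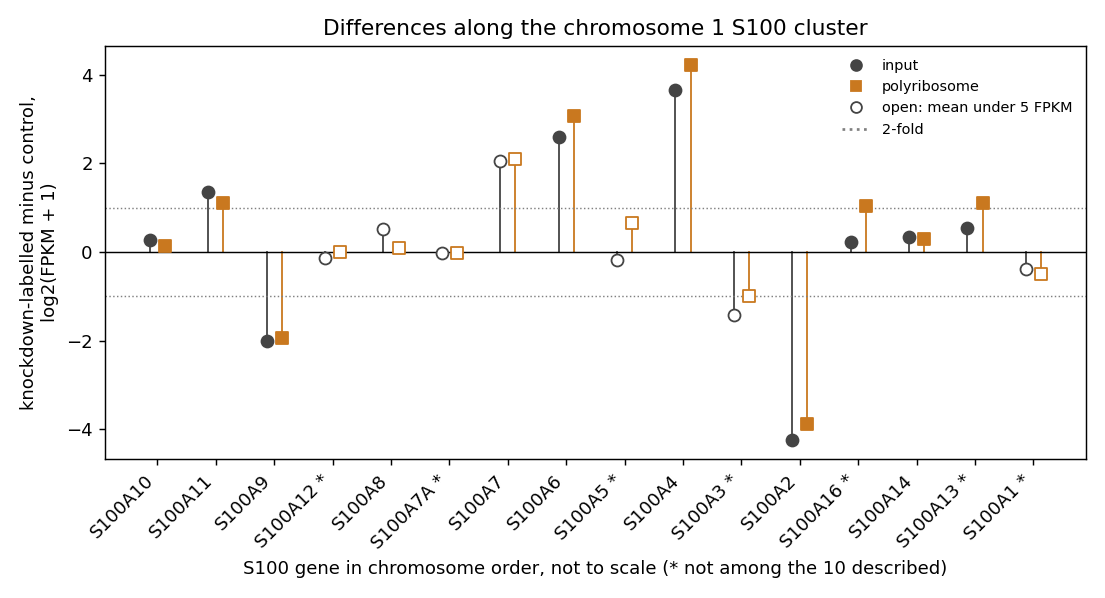
Difference between knockdown-labelled and control cells on the log2(FPKM + 1) scale for the S100 genes on chromosome 1, in chromosome order and not to scale, in input (circles) and polyribosome RNA (squares). Open symbols mark genes averaging under 5 FPKM, and S100A4 and S100A2, which have S100A3 between them, lie on opposite sides of 0.

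The sequences just before the starts of genes that moved apart are shown because genes of the same family, some close together on chromosome 1, differed in direction. Each is the 100 bases before the transcript start in the RefSeq table of GRCh38.p14, written 5′ to 3′ on the gene's strand. That is not the build named for the deposited files, and no coordinates were converted. S100A4 (minus strand, chr1:153545807-153545906), S100P (plus strand, chr4:6693778-6693877) and S100A6 (minus strand, chr1:153535992-153536091) were higher in knockdown-labelled cells, and S100A9 (plus strand, chr1:153357754-153357853) and S100A2 (minus strand, chr1:153565845-153565944) were lower. Capitals mark TATAA, the core of the TATA box, and TGANTCA, the AP-1 motif, searched on both strands. In S100P the reverse strand match overlaps the forward one.
S100A4: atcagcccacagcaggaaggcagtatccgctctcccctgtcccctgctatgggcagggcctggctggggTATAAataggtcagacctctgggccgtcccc
S100P: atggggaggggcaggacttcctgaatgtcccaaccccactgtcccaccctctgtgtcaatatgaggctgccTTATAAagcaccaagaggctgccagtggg
S100A6: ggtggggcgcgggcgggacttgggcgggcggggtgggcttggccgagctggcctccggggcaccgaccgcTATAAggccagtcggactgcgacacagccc
S100A9: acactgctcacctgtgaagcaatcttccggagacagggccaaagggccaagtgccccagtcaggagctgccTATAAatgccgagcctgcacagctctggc
S100A2: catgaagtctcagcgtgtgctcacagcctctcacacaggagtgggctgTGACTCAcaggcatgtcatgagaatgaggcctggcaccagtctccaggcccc

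Of the 10 genes, 7 had TATAA in the 100 bases before a listed start, where 3161 of the 35116 windows of this length in the table hold it. The first match began between 29 and 31 bases before the start in each of them. They included S100A4, S100P and S100A6, which were higher, S100A9, which was lower, and S100A14, which differed by less than 2-fold. No TATAA was found for S100A11, which was also higher, for S100A10 or for S100A2. TGANTCA was found for 1 gene, S100A2, at 1 of its 2 listed starts, where 966 of the 35116 windows (2.75%) hold it. The motifs were chosen with the windows in view, a match is only a match of letters, and all 10 genes have 13 windows in the table because some have several starts.

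Translation efficiency was taken as log2(FPKM + 1) on polyribosomes minus log2(FPKM + 1) in input. In control cells the S100 messages were about as abundant on polyribosomes as in input. The 8 genes ranged from -0.12 for S100P to 0.50 for S100A4, with a median of 0.15, and 0 were at least 2-fold higher or lower. The background was 0% higher and 0.759% lower over all genes, whose median was 0.03. In knockdown-labelled cells the range widened to between -0.12 for S100A11 and 1.08 for S100A4. S100P was at 0.74, S100A2 at 0.64, S100A6 at 0.58, S100A9 at 0.23, S100A14 at 0.15 and S100A10 at -0.09. Of the 8 genes 1 was at least 2-fold higher, S100A4, and 0 lower, where 8.62% of all genes were higher and 28.8% lower. The median was 0.40 for the S100 genes and -0.02 for all genes.

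The efficiency difference, knockdown-labelled minus control, is the quantity the series was designed to give. In the header's column order it was under 2-fold for each of the 8 genes. It was 0.86 for S100P, 0.58 for S100A4, 0.48 for S100A6, 0.37 for S100A2, 0.08 for S100A9, -0.06 for S100A14, -0.14 for S100A10 and -0.26 for S100A11. Past 2-fold, 12% of all genes were higher and 30.1% lower, and the medians were 0.22 for the S100 genes and -0.12 for all. S100A8 and S100A7, under the filter, were at -0.42 and 0.06. In the authors' deposited table, in which 5 was added to both FPKM, the ratio of polyribosome to input was 1.16 in control and 1.99 in knockdown cells for S100A4, and 0.980 and 1.61 for S100P. For S100A11 the authors' deposited table gives 1.10 and 0.921.

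The sign of the efficiency difference changed with the column order and with the removal of a trend on GC content and transcript length. With the fractions exchanged, 7 of the 8 genes were below 0, the median was -0.50, and S100A4, at -1.58, was the 1 gene at least 2-fold lower, where 27.8% of all genes were higher and 6.29% lower. S100P was then at -0.63, S100A2 at -0.92 and S100A6 at -0.68. S100 transcripts are short. The 10 ranged from 479 to 1279 bases with a median of 636.5, against a median of 2648.5 bases for all genes kept. Across genes, the median efficiency difference was 0.33 for the 795 genes with a transcript under 1200 bases and -0.55 for the 1834 genes of at least 4000 bases. With that trend removed, 7 of the 8 genes were below 0 and the median was -0.66, while that of all genes was -0.39. Only 28.5% of all genes were above 0 in that setting. S100A11, S100A9 and S100A6 were then at least 2-fold lower, at -1.24, -1.08 and -1.01, and S100P was the 1 of the 8 above 0, at 0.56. Among all 7350 genes with a length, 1295 were at least 2-fold lower and 392 higher. The same removal left the input calls of all 8 genes as they were, but moved the polyribosome difference of S100A11 from 1.10 to 0.52 and the polyribosome median of the 8 genes from 0.70 to 0.23, with 4 of the 8 below 0. Of all genes, 35.5% were above 0 in that polyribosome comparison.

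**Figure D4:**
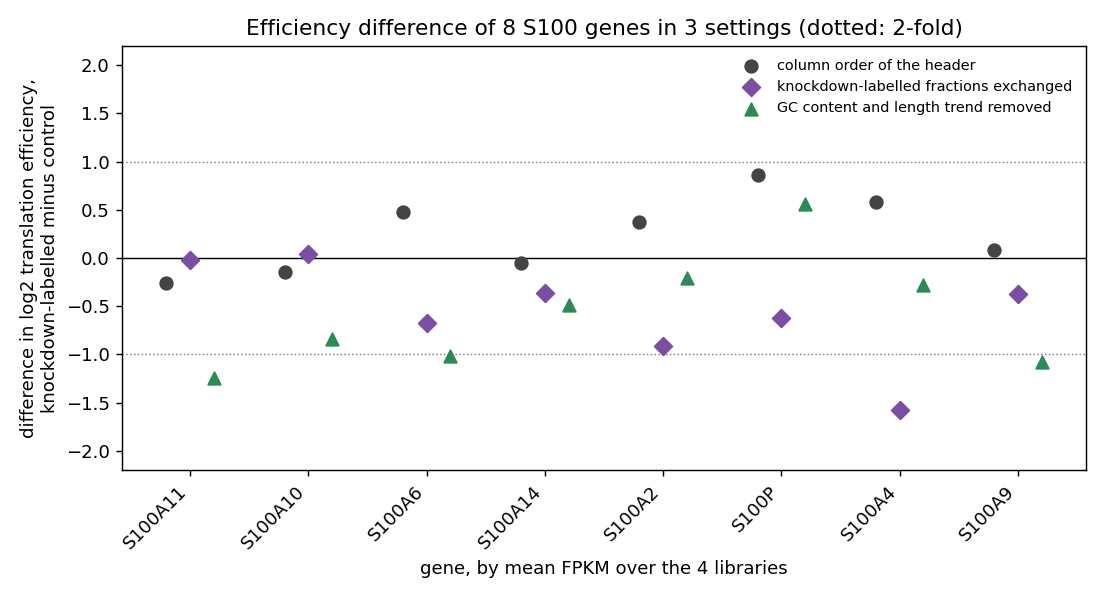
Difference in log2 translation efficiency between knockdown-labelled and control cells for the 8 S100 genes that averaged 5 FPKM or more, in the header's column order (circles), with the knockdown-labelled fractions exchanged (diamonds) and with the trend on GC content and length removed (triangles). Between the circles and the diamonds the sign changes for S100P, S100A4, S100A6, S100A2, S100A9 and S100A10.

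Partners and receptors of S100 proteins were considered as a list of 22 genes, all in the table, of which 15 passed the filter. In input 0 of the 15 were at least 2-fold higher and 1 was lower, the adhesion receptor ALCAM, at 12.6 and 1.98 FPKM, and the median was 0.12, beside 13.2% higher and 14.4% lower among all genes. ALCAM passed the filter only through the control libraries, where it was high. With the fractions exchanged 0 of the 15 were higher and 7 lower, with a median of -0.55, where 15.9% of all genes were higher and 31.8% lower. ANXA2, the partner of S100A10, was 1009 FPKM in control input, against 1407 FPKM in knockdown-labelled input. The ratio of S100A10 to ANXA2 was 0.839 in control input and 0.731 in knockdown-labelled input. On polyribosomes, where ANXA2 was at 1395 and 689 FPKM, the ratio was 0.628 for control cells and 1.40 for the knockdown-labelled ones. With the knockdown-labelled fractions exchanged, 0.731 and 1.40 change places and the control ratios stay as they are.

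ANXA1, the partner of S100A11, was at 337 and 394 FPKM in control input and polyribosome RNA and at 265 and 12.01 FPKM in the knockdown-labelled pair. CACYBP, the partner of S100A6, was at 47.4 and 63.7 FPKM and at 72.5 and 14.5 FPKM. Both had their lowest value in the library labelled knockdown polyribosome. MYH9, the myosin heavy chain bound by S100A4, was at 81.6 and 118 FPKM in control and at 51.9 and 35.9 FPKM in knockdown-labelled cells. EZR, which encodes ezrin and whose product binds S100P, was at 114 and 149 FPKM and at 145 and 99.4 FPKM. ANXA1, ANXA2, CACYBP, MYH9 and EZR were thus each lower in the library labelled knockdown polyribosome than in the matching input. The partner genes ANXA11 and AHNAK were higher there, at 0.34 and 0.80 on the log2 scale. So were BSG at 0.50, PPP5C at 0.47 and RHOC at 0.62, and the rest of the 15 were lower. Of all genes, 49.3% were above 0 in this comparison. Among the S100 genes paired with ANXA1, ANXA2, CACYBP, MYH9 and EZR, S100A10 and S100A11 were near 0 there, at -0.09 and -0.12. Without replicates such values cannot be told apart from no difference. S100A4, S100A6 and S100P were higher. With the trend on GC content and length removed, the median of all genes was -0.36 in this comparison, and 26.5% of all genes were above 0. In that setting S100A6 was at -0.88 and CACYBP at -0.85, and S100A10 was at -0.86 and ANXA2 at -0.53. S100A11 was then at -1.09 and ANXA1 at -2.69, S100A4 at 0.23 and MYH9 at -1.17, and S100P at 0.36 and EZR at -0.45. As a list, 8 of the 15 were at least 2-fold lower and 0 higher in polyribosome RNA (median -1.02), where 16.7% of all genes were higher and 32.9% lower. With the fractions exchanged 2 were lower and 0 higher, with a median of -0.04, where 12.7% of all genes were higher and 14% lower. In efficiency 8 were lower and 1 higher (median -1.05), where 12% of all genes were higher and 30.1% lower. The higher one was AHNAK, the large scaffold that binds the S100A10 and annexin A2 complex, at 1.04. With the fractions exchanged the efficiency count was 5 higher and 0 lower, with a median of 0.46, where 27.8% of all genes were higher and 6.29% lower. The receptors AGER and TLR4 were near the bottom of the list, AGER between 0.64 and 2.00 FPKM and TLR4 between 0 and 1.07 FPKM. BSG, a surface receptor of S100A9 named with its values in view, was between 406 and 609 FPKM.

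For the 3 S100 genes with the widest range over the libraries, the genes of most similar level were found among 5615 genes averaging 10 FPKM or more, by Euclidean distance over the 4 values of log2(FPKM + 1). Nearest to S100P were PRR15, a small proline-rich protein gene, at a distance of 0.25, and HIST3H2A, a histone H2A gene, at 0.34. PRR15 was at 0.23, 0.39, 44.6 and 71.2 FPKM in control input, control polyribosome, knockdown-labelled input and knockdown-labelled polyribosome RNA, close to S100P in each. Nearest to S100A4 were LGALS9, which encodes galectin 9, at 0.85 and CALHM2, of the calcium homeostasis modulator family, at 0.89. Nearest to S100A2 were ASS1, the argininosuccinate synthase, at 0.98 and RAC2, a small GTPase gene, at 1.00. With only 4 libraries, many genes can lie this close.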

How the data were processed

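RNA of 4 libraries, 1 per group, was measured. The authors deposited FPKM per gene symbol. Per the submitters' processing notes, TopHat (version not stated) and the builds hg19 and GRCh37 were used. The sources used here do not give the counting tool, the strand setting or the annotation. The authors also deposited ratios of polyribosome to input FPKM, which equal (polyribosome + 5)/(input + 5). Groups came from titles and columns from header names. Whole reads were not recovered from these FPKM, which are rounded to 0.01, so depth and counting error are unknown.

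Differences of log2(FPKM + 1) were computed in Python 3.11.15 for 7379 genes averaging 5 FPKM or more, and counted at 2-fold. Of all lines, 28 have no gene name and entered only the backgrounds. GC content and length came from 1 GENCODE 29 transcript per gene (APPRIS principal first, then longest), for 7350 genes (99.6%), matched by symbol or RefSeq synonym. The scripts were tested on simulated data. The 10 genes and the lists were chosen with earlier results of these data known. Named genes are the 10, NSUN6, the list members paired with them or highest or lowest in input, and nearest genes by level. Markers quoted as checks, S100A5, S100A7A, IVL, SPRR1A, BSG, PPP5C and RHOC fell outside that rule and were picked with their values in view. The alternatives were pseudocounts of 0.1 and 5, an average of 1 FPKM or more, no filter, exchanged fractions, centring, and removal of GC content and length.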

Additional observations from a re-analysis of the deposited data

How the results depend on the processing

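No paired analysis was possible because each group held 1 library, and for the same reason no library could be left out. The input and polyribosome counts of S100 genes at least 2-fold higher (4) and lower (2) stayed within 1.5 times under every alternative run. With the trend on GC content and length removed, the polyribosome median moved from 0.70 to 0.23, 4 of the 8 genes were below 0 and S100A11, at 0.52, was no longer past 2-fold. The input median moved from 0.86 to 1.10 in that setting. The within-cell and efficiency results were less stable. For knockdown-labelled polyribosome against input RNA, the count of S100 genes at least 2-fold higher was 1 and became 0 with a pseudocount of 5, with fractions exchanged and with GC content and length removed. The count lower, 0 before, became 1 in the last 2 settings, and the median became -0.40 and -0.61. The median of all genes was 0.02 and -0.36 in those settings. S100A4 reversed to -1.08 there with fractions exchanged, as that exchange must do. For the efficiency difference, a pseudocount of 0.1 gave 1 gene at least 2-fold higher, S100P. Exchanged fractions gave 1 gene lower and a median of -0.50, and removal of GC content and length gave 3 genes lower and a median of -0.66. With that removal 1295 of all 7350 genes were lower. Why these results moved was not tested beyond the construction of each alternative. Centring, a mean of at least 1 FPKM and no filter changed no S100 count by more than 1.5 times, though centring turned the efficiency difference of S100A14 from -0.06 to 0.07. The unknown depth limits S100A7, S100A8 and the control levels of S100A4 and S100P most.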
